A study of Mus musculus with 12 samples.

Results

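The members described here are 680 autosomal transcript fragments among the 14899 rows of an allelic expression table. They are the rows whose name begins with cuff_, the prefix Cufflinks gives to transcripts it assembles from reads without a gene name, and that do not lie on the X chromosome (19 such rows on X were left out). The other autosomal rows, 13735 of them, carry a gene or transcript name and serve as the comparison. The cells are hybrids of mouse strains 129Sv and Cast/EiJ, so a read over a strain variant can be assigned to the 129 or the Cast allele. Embryonic stem (ES) cells of the XX line F1-21.6 and of the XY line F1-23, 1 library each, were grown on mitomycin C-inactivated embryonic fibroblasts with serum and LIF. Clonal neural progenitor cells (NPC) came from the same lines, with 1 library for each of 8 clones: clones 129, C2, G4 and E1.2 from the XX line, and clones mC3, mE6, mB4 and mG3 from the XY line. All cells share the hybrid genome and no transgene is named. Each clone descends from its line, and among the NPC clones the line, the sex chromosomes and the set of library names coincide, so their effects cannot be told apart. Clone 129 is a clone, and the 129 allele is written as such throughout.

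A mammalian genome is transcribed far beyond its named genes. Promoters rich in CpG, the dinucleotide C followed by G, often fire in both directions and leave an RNA that starts head to head with the gene, while other unnamed transcripts are long intergenic RNAs, products of enhancers, unrecorded 3′ or 5′ extensions of genes, or antisense RNAs. In random monoallelic expression, a clone of cells transcribes 1 allele of an autosomal gene and passes that state on to its daughters, so that sister clones can differ in the allele they use. Imprinted genes and genes with a strain variant in a regulatory site use the same allele in every clone.

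The 5 sequences that follow show how unlike the start regions of these fragments can be: 3 gaps between a fragment and the gene it starts head to head with, and the start regions of 2 of the 8 fragments with the largest fitted rise in neural progenitors. They are read from the mm9 genome on the strand of the fragment, 5′ to 3′, with every CG in capitals. The gaps lie at chr7:87065527-87065619 (plus strand, between cuff_14925 and Ap3s2), chr4:128735204-128735376 (minus strand, between cuff_12196 and Rnf19b) and chr8:59966658-59966826 (plus strand, between cuff_16136 and Sap30). The start windows run from 250 bases before the 5′ end to 50 bases into the fragment, at chr3:88022761-88023060 (plus strand) for cuff_10525 and chr9:68410028-68410327 (minus strand) for cuff_17801.
cuff_14925 gap to Ap3s2: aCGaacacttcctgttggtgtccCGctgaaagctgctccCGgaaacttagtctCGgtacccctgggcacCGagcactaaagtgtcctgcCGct
cuff_12196 gap to Rnf19b: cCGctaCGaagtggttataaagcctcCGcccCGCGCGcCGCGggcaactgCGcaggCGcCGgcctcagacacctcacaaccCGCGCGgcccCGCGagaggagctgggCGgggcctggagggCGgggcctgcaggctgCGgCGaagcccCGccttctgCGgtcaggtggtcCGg
cuff_16136 gap to Sap30: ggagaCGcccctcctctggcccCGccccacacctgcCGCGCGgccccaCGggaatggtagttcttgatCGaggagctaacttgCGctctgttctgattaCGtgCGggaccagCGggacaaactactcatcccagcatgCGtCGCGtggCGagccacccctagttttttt
cuff_10525 start window: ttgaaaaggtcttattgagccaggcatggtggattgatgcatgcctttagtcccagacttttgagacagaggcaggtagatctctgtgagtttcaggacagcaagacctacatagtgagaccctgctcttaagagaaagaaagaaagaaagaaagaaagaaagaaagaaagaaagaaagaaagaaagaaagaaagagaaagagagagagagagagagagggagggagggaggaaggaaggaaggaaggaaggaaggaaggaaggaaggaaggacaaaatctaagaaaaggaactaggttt
cuff_17801 start window: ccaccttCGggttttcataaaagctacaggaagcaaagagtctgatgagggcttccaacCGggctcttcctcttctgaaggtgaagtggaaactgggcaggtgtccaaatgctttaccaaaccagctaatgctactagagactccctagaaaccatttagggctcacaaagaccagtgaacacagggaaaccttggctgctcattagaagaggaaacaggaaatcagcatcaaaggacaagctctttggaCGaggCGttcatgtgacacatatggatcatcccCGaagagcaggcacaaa
The gap beside Ap3s2 holds 6 CG in 93 bases, that beside Rnf19b 23 in 173 and that beside Sap30 15 in 169. The start window of cuff_10525 holds 0 CG in 300 bases and a long run of purine repeats, and that of cuff_17801 holds 5.

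The fragments were short and lay in sparser regions than the named rows. Their median span from first to last base was 5246.5 bp, with quartiles at 2575.75 and 12311.5 bp, against a median of 24645 bp for named rows. The median distance from a fragment to its nearest named row was 11022.5 bp, against 3254 bp between named rows. Of the fragments, 37 (5.44%) overlapped a named row, 138 (20.3%) lay within 1000 bp of one, and 121 (17.8%) lay over 100000 bp away. The corresponding shares of named rows were 21.5%, 16.9% and 6.48%. Among the 138 fragments within 1000 bp, 102 (73.9%) started head to head with the neighbour on the opposite strand, whereas 1178 of 2323 named rows at that distance (50.7%) did so. The strand used here was inferred from the order of the rows in the deposited table.

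The label "unannotated" held for most of the fragments but not for all. Against GENCODE annotation of the same genome build, 468 of 680 (68.8%) lay between annotated genes, 27 lay within an intron only and 29 lay over an exon of the opposite strand only. The other 156 overlapped an exon on their own strand. A protein-coding gene was among the genes met for 60 of them, a lincRNA (long intergenic RNA) for 55, another processed transcript for 33 and a pseudogene for 7; some fragments met several types and a few met only short RNA genes. The 680 fragments formed 659 separate loci, and 41 fragments in 20 loci overlapped another fragment. In 1 such locus, cuff_14925 and cuff_15646 lie on opposite strands beside Ap3s2, with the same first coordinate, and carry identical counts in every library, so the counts do not separate strands.

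A CpG-rich start was common next to a gene start and uncommon elsewhere. A 300-base window was called CpG-rich where at least 50% of its bases were G or C and CG occurred at 0.6 or more of the frequency those bases predict. Of all fragments, 132 (19.4%) had such a window, against 8061 named rows (58.7%). Among the 102 fragments head to head within 1000 bp of a named row, 85 (83.3%) had one, and among the other 578 fragments 47 (8.13%) did. The corresponding shares of named rows were 89.2% and 55.8%. Windows of head-to-head pairs share bases with the start region of the neighbour, so the fragment and the gene are not independent there. The polyadenylation signals AATAAA or ATTAAA, searched on the transcript's strand in its last 50 bases, were found in 82 fragments (12.1%) and in 67.0% of named rows. On the opposite strand, the first 50 bases of the transcript held either in 3.09% of fragments and 1.44% of named rows. A match to these letters is a description of the window and does not show a processing site.

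**Figure D1:**
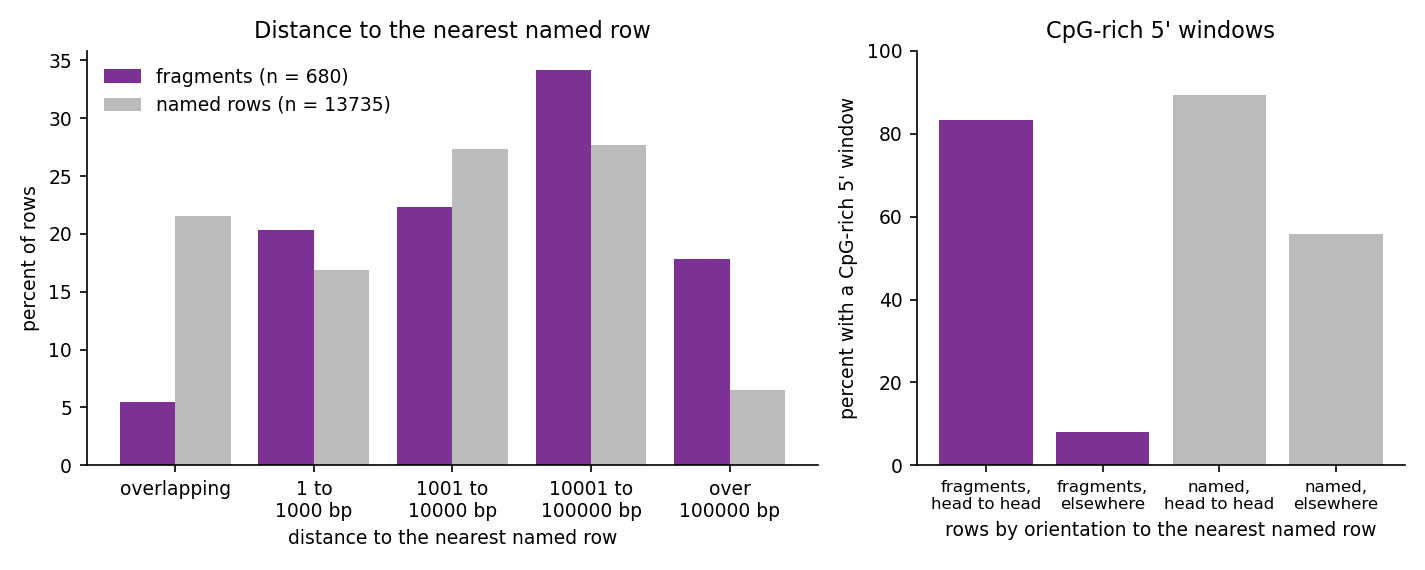
Left, the percent of the 680 fragments (purple) and of the 13735 named rows (grey) in each class of distance to the nearest named row. Right, the percent of rows with a CpG-rich 300-base start window, for rows head to head within 1000 bp of a named row and for all others. The fragments have fewer overlaps and more members over 100000 bp away (17.8% against 6.48%), and their CpG-rich starts lie mostly in head-to-head pairs (83.3% against 8.13%).

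The libraries held 61375911 to 119266777 allele-informative counts, and fragments supplied 0.117% and 0.118% of them in ES cells and 0.440% to 0.660% in the NPC clones. The median fragment had 0.18 to 0.29 FPKM (read pairs per kilobase and library size, a level per length) in the clones, where the median named row had 7.33 to 7.81. Between 363 and 486 fragments had at least 20 counts in an NPC clone, 146 and 161 had them in the XX and XY ES libraries, and 91 reached 20 in no library. ES markers summed to 2.96 to 6.58 counts scaled to library size (CPM) in the NPC clones and 1243 and 2435 in ES cells, while neural progenitor markers summed to 6360 to 9477 in the clones and 469 and 497 in ES cells. The sums cover 5 of 10 listed ES markers and 11 of 12 listed neural progenitor markers. Among the latter, Sox2 went the other way, at 126 and 113 CPM in the XX and XY ES libraries and 21.5 to 43.3 in the clones. Fibroblast markers, which the feeder cells would carry, summed to 48.8 and 97.9 CPM in ES cells and 0.864 to 44.8 in the clones, with clone E1.2 highest. E1.2 also had the highest sum of astrocyte markers, 394 CPM against 79.9 to 201 in the other clones, and of neuron markers, 268 CPM against 18.5 to 131. Nearly all of its neuron sum was Dcx (261 CPM), and its Tubb3 was the lowest of the clones (0.159 CPM). In bulk RNA, fewer cells of a type and less RNA per cell cannot be told apart.

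Counts were concentrated in very few fragments. The 3 most abundant fragments held 55.7% to 69.0% of all fragment counts in each NPC clone. Per length, cuff_10525 was highest, with a mean of 104 FPKM over the clones, followed by cuff_10341 at 85.2, cuff_15939 at 76.2, cuff_7458 at 36.1 and cuff_355 at 28.3. The FPKM and the allele counts of such short fragments need not move together: cuff_15939 had 0 to 11 allele-informative counts in the clones and cuff_355 had 0 to 27.

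Most of the fragments tested were higher in NPC than in ES cells, in a table that was selected on NPC counts. The comparison of the 8 NPC clones with the 2 ES lines used edgeR's quasi-likelihood test with a term for line, fitted to all rows with Benjamini-Hochberg adjustment. Of 620 fragments tested, 377 were higher in NPC, where 33.3% of the 14561 rows tested were, and 26 were lower, where 29.7% of all rows were. This asymmetry cannot be read as it stands, because every row of the deposited table has at least 11 counts in some NPC clone and no such requirement holds for ES cells. In all, 287 fragments (42.2%) had 0 counts in both ES libraries, against 3.83% of named rows, and 214 of the 377 higher fragments were among them. Among the 154 fragments with a mean of at least 20 counts in ES cells, a subset added after the data were seen, 55 (35.7%) were higher and 26 (16.9%) lower, with a median log2 change of 0.58. Named rows in the same range gave 30.1% higher, 34.5% lower and a median of -0.09. The requirement of 11 counts in some NPC clone holds for these subsets too. A row that fell below it in every clone is therefore absent, and the part of this in the shares was not tested. Within the library set that the ES and XY NPC libraries share, 257 fragments were higher and 22 lower. The shares of all rows in that set are not given here.

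The 8 fragments with the largest fitted log2 rise had no count in either ES library, and every clone lay above both. Of all rows tested, 62% had NPC and ES values that did not overlap. A fold against 0 is given as a lower bound, taking 3 counts over both ES libraries together as the floor. Reads of cuff_10525 were at 799 to 2300 CPM in the clones (median 1693), at least 75985-fold above that floor (adjusted p = 1.06e-06). This fragment (chr3:88023011-88033884, plus strand, the lincRNA Gm3764 in GENCODE) lies inside the row named Mir9-1 and shares its reads. The hairpin of mir-9-1, a microRNA of neural progenitors, matched chr3:88019520-88019608 on the plus strand, upstream of the fragment's first base. The order of the rows puts the Mir9-1 row on the minus strand, against the strand of the hairpin, so the strand inferred for that row is uncertain. The Mir9-1 row had 3 counts in the XX and 0 in the XY ES library and 823 to 2375 CPM in the clones.

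The next 3 were far below it but still abundant. cuff_17801, between annotated genes, had 51.7 to 205 CPM in the clones (median 108), at least 5248-fold above the ES floor (adjusted p = 2.91e-05). cuff_5497 had 50.3 to 237 CPM (median 98.3), at least 5250.5-fold above it (adjusted p = 5.17e-05), and lies 248087 bp from Spry2, a feedback inhibitor of growth factor signalling. Spry2 rose by a log2 change of 1.52 (SE 0.21, adjusted p = 0.000263). cuff_17987 had 24.6 to 70.5 CPM (median 45.8), at least 2204-fold above the floor, and lies 76776 bp upstream of Rbms3, an RNA-binding protein gene that rose by a log2 change of 6.39 (SE 0.34, adjusted p = 1.43e-06).

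The other 4 had medians between 32.6 and 36.7 CPM and lower bounds between 1639-fold and 1788-fold. They were cuff_2860, cuff_5146, cuff_15577 and cuff_10771. cuff_5146 overlaps an exon of 9330188P03Rik and has Ndfip2, an adaptor of ubiquitin ligases, as its nearest named row 279735 bp away. Ndfip2 rose by a log2 change of 1.0 (SE 0.10, adjusted p = 3.41e-05). The neighbours of cuff_2860 and cuff_15577 did not rise: Bod1 had a log2 change of -0.10 (adjusted p = 0.52) and Zdhhc13 one of -0.38 (adjusted p = 0.037).

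Of the 8 fragments that fell most, several lay near named genes that fell too. cuff_8203 had 29.5 and 29.0 CPM in the XX and XY ES libraries and 0.705 to 2.15 in the clones, a log2 change of -4.54 (SE 0.24, adjusted p = 1.28e-06). It starts head to head with Smad7, an inhibitor of TGF-beta signalling 2054 bp away, whose change was -5.23 (SE 0.47, adjusted p = 2.06e-05). cuff_1907 overlaps an exon annotated to Socs2, a feedback inhibitor of cytokine signalling, and fell from 3.10 and 3.23 CPM to 0.00883 to 0.211 (log2 -5.52, adjusted p = 0.000387). The Socs2 row, 22478 bp away, changed by -4.65 (SE 0.73, adjusted p = 0.000489).

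Similar values were seen near other genes. cuff_7188 had 2.07 and 1.31 CPM in ES cells and 0 to 0.120 in the clones (log2 -5.32, adjusted p = 0.00321), 7955 bp from Tgif1, a repressor of TGF-beta targets, whose change was -3.55 (SE 0.23, adjusted p = 3.23e-06). cuff_1624 had 4.02 and 3.74 CPM in ES cells and 0 to 0.275 in the clones (log2 -6.16, adjusted p = 0.00124), 54995 bp from the kinase gene Sgk1, whose change was -2.89 (SE 0.33, adjusted p = 8.17e-05). cuff_1624 was almost wholly from the Cast allele in ES cells, with 0% and 0.377% of 272 and 265 counts from the 129 allele, while Sgk1 had 56.2% and 41.4%.

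The largest fall was that of cuff_4470, an exon of BC067074, from 34.4 and 19.5 CPM to 0 to 0.552 (log2 -7.51, SE 1.33, adjusted p = 0.00102). cuff_17270 fell from 35.4 and 35.9 CPM to 2.23 to 5.36 (log2 -3.34), while Leo1, 9720 bp upstream, changed by only -0.37 (SE 0.12, adjusted p = 0.0217). cuff_16136, whose gap to Sap30 is printed above, fell from 2.60 and 2.37 CPM to 0.178 to 0.327 (log2 -3.18, adjusted p = 2.21e-05). Sap30, a subunit of a histone deacetylase complex, had a change of -1.14 that did not pass (adjusted p = 0.088). cuff_568, an exon of Gm10567, fell from 8.23 and 4.25 CPM to 0.0148 to 1.5 (log2 -3.57, adjusted p = 0.00692). The calls for cuff_7188 and cuff_568 were lost without the XX ES library (adjusted p = 0.0565) and without the XY ES library (adjusted p = 0.0779), respectively. The part of the feeder cells in the ES level of these fragments was not tested.

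**Figure D2:**
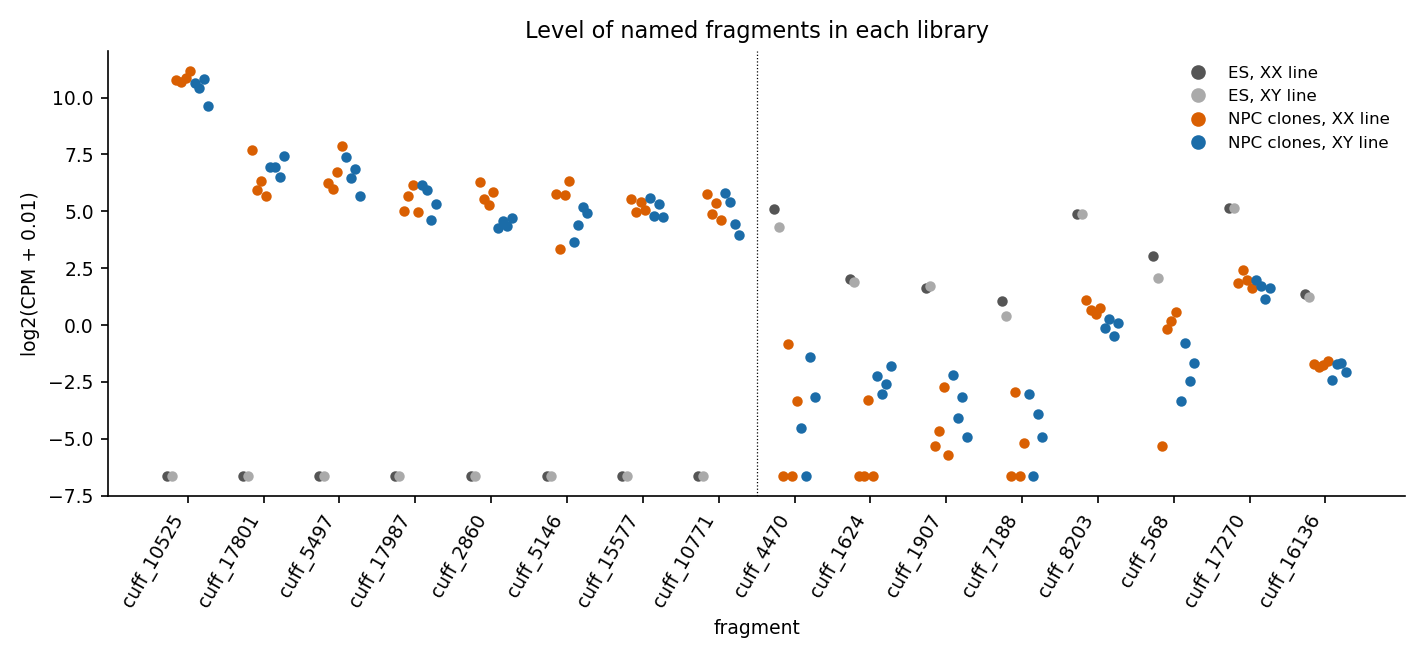
Level of the 8 fragments with the largest rise (left of the dotted line) and the 8 with the largest fall (right) in each library, as log2(CPM + 0.01). Grey points are ES libraries, orange and blue points NPC clones of the XX and XY lines. The left fragments are at 0 in both ES libraries, the lowest level drawn, and at 10.0 CPM or more in every clone, and the right ones are above all clones in both ES libraries.

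Calls of a fragment and its neighbour were set side by side without a test. Among fragments within 10 kb of a named row, 168 were higher in NPC. The neighbour was higher for 101 of them, lower for 23, not called for 43 and not tested for 1. These 168 include 21 fragments that overlap the named row, with 19 neighbours higher. Counts do not separate strands in overlapping pairs, so such a pair can share reads. Of all rows tested, 33.3% were higher and 29.7% lower. Of the 120 fragments at that distance that were not called, the neighbour was higher for 40 and lower for 34. Of the 18 lower fragments at that distance, the neighbour was lower for 10 and higher for 4. For the head-to-head pairs within 1000 bp, 50 fragments were higher, with 29 neighbours higher, 8 lower and 13 not called. Rnf19b and cuff_12196, whose gap is printed above, were both called lower in NPC, with log2 changes of -1.86 and -1.41 (adjusted p = 2.22e-06 and 0.0275). Rnf19b had 66.3 and 73.9 CPM in the XX and XY ES libraries and 16.5 to 21.4 in the clones. The fall of cuff_12196 was in the XY clones, at 0.699 to 1.85 CPM. Its XX clones, at 4.22 to 7.16 CPM, spanned its ES values of 5.88 and 6.60.

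Between NPC clones of the XX and XY lines, 10 of 535 fragments tested were higher in XX clones and 0 were lower by edgeR's quasi-likelihood test, where 0.876% and 0.412% of the 13591 rows tested were. Before adjustment, 104 fragments were higher and 18 lower at a p under 0.05. DESeq2 called 64 and 10, and limma on log2(FPKM + 1) called 14 and 7. The shares of all rows for the unadjusted, DESeq2 and limma counts are not given here. Whether fragments exceed them cannot be read from these counts. The median log2 difference of the fragments tested was 0.54, against 0.01 over all rows. This shift cannot be read as it stands, because a row entered the table with at least 11 counts in any NPC clone. The largest NPC totals, 119266777, 102153897 and 100631463 counts, belonged to XX libraries. XY totals were 72230497 to 91955553, and clone 129 had 66611144. The part of this selection in the shift was not tested. The edgeR calls between lines rest on few clones: 0 to 17 were higher when 1 clone was left out, with 0 remaining without any 1 of the XY clones. Leaving out C2 gave 3, G4 gave 1 and E1.2 gave 3, and without clone 129 there were 17 higher and 2 lower.

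By size of difference, the first was cuff_16435, an exon of Gm22 8554 bp upstream of Zfpm1, at 21.7 to 59.0 CPM in XX clones and 2.95 to 9.65 in XY clones (log2 2.52, SE 0.45, adjusted p = 0.044). Zfpm1, a cofactor of GATA factors, had a difference of 0.29 (adjusted p = 0.69). cuff_12196, head to head with Rnf19b, had 4.22 to 7.16 CPM in XX clones and 0.699 to 1.85 in XY clones (log2 1.90, adjusted p = 0.0472). Rnf19b, a ubiquitin ligase gene, had a difference of 0.08 (adjusted p = 0.69). The 2 groups of clones did not overlap for either fragment, as was the case for 17.4% of all rows tested. cuff_4887, cuff_2860 and cuff_13414 followed with log2 differences of 1.35, 1.28 and 1.26 (adjusted p = 0.0415, 0.044 and 0.0415), also without overlap. The line, the sex chromosomes and the library set cannot be told apart here.

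Fragments were called monoallelic more often than named rows. A row with at least 20 counts in a library was called monoallelic where at least 85% came from 1 allele and an exact two-sided binomial test against equal shares passed after adjustment over the library's autosomal rows; biallelic rows are those with a major allele of at most 70%. Such calls rest on 1 library per clone and cover counting error only. Of the testable fragments, 28.9% ± 0.879 (SD, n = 8 clones) were monoallelic in NPC, ranging from 27.5% to 30.1%, and of named rows 6.04% ± 0.743. Over all autosomal rows the share was 8.37% in clone 129, 6.72% in C2, 6.99% in G4, 6.69% in E1.2, 6.41% in mC3, 6.95% in mE6, 5.83% in mB4 and 6.42% in mG3. In ES cells 32.2% of testable fragments were monoallelic in the XX and 32.9% in the XY library, where 5.87% and 5.12% of all autosomal rows were. The median 129 share of fragments was 49.6% to 52.2% in the clones, so neither allele was favoured as a whole.

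The gap to named rows was present in each range of counts in the clones. Among fragments with 20 to under 100 counts, a mean of 37.0% were monoallelic in the clones, against 26.3% of named rows with as many counts. At 100 to under 500 counts the means were 22.2% and 11.3%. With 500 or more counts, 16.4% of fragments (13.1% to 20%, of 56 to 89 fragments per clone) and 2.36% of named rows were monoallelic. In ES cells none of the 21 and 22 fragments with 500 or more counts was.

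**Figure D3:**
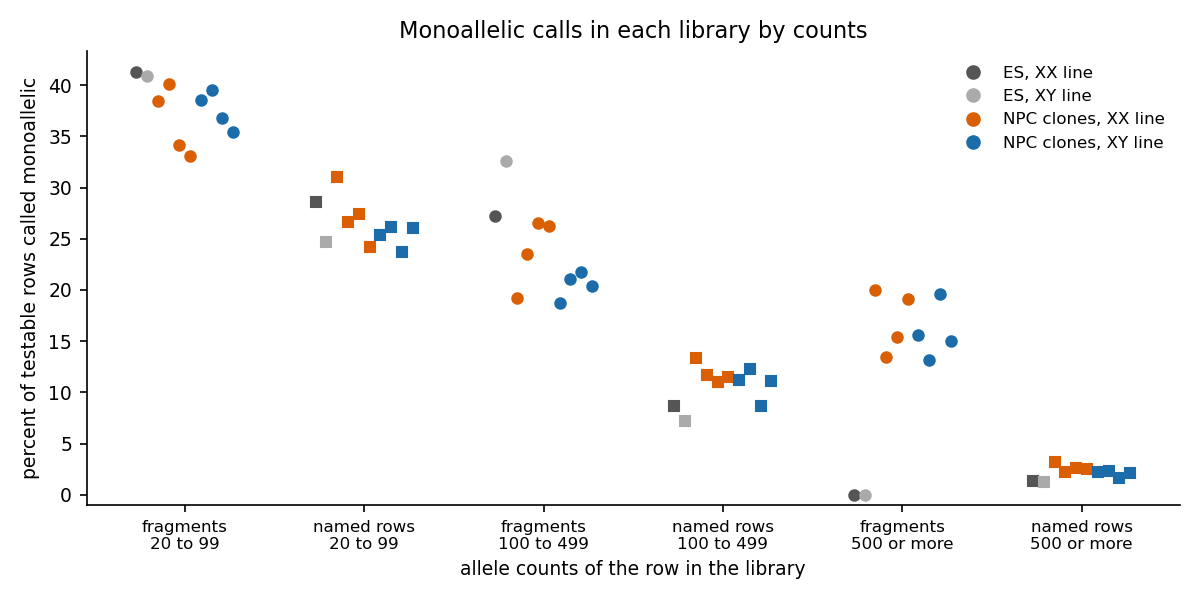
Percent of testable rows called monoallelic in each library, for fragments (circles) and named rows (squares) in 3 ranges of allele counts. Grey points are ES libraries, orange and blue points NPC clones of the XX and XY lines. In the clones fragments lie above named rows in each range, with means of 37.0% against 26.3%, 22.2% against 11.3% and 16.4% against 2.36%, while both ES libraries are at 0 for fragments with 500 or more counts.

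Over clones, fragments were classed by whether a monoallelic call varied between clones or held in every testable clone. A row testable in at least 6 clones was called random monoallelic where at least 1 clone was monoallelic and at least 1 other was biallelic or used the other allele, and fixed where all testable clones were monoallelic with 1 allele in common. Of 351 fragments testable in at least 6 clones, 129 (36.8%) were random, where 13.7% of the 12108 autosomal rows were, and 37 (10.5%) were fixed, where 1.01% were. Monoallelic calls in at least 1 clone were found in 194 of the 351, so some fragments met neither definition. Another 43 fragments (12.3%) were biallelic in every testable clone, as were 72.0% of the named rows compared. The random share was highest at low counts in both sets. It was 51.0% of fragments and 48.2% of named rows with a mean below 100 counts, 24.8% and 27.3% at 100 to under 500, and 29.3% and 7.54% at 500 or more. The fixed share was 14.3%, 10.1% and 4.00% of fragments in these ranges, against 2.90%, 1.80% and 0.354% of named rows.

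Random calls were spread over the clones and alleles. Each clone had 28 to 41 of them, and 60 of the 129 random fragments were monoallelic in 1 clone, 34 in 2 and 17 in 3. In 7 fragments (1.99% of those compared, against 1.79% of named rows), different clones used each allele alone, and 2 of the 7, cuff_14925 and cuff_15646, are the same reads. Of the others, 2 chosen after their values were seen show the range: cuff_6798, 2258 bp from the neural factor gene Olig2, had 100% of 22 counts from the 129 allele in mG3 and 1.28% of 78 in mE6, and cuff_2116, 246 bp from Spnb2, had 96.3% of 27 counts in mE6 and 5.45% of 55 in mC3. Of the 48 random fragments testable in an ES library, 21 were biallelic in every ES library where they could be tested. Random fragments were found at all distances from named rows, from 19.0% of the 21 compared fragments that overlap one to 42.1% of the 57 over 100000 bp away, and 36.3% of those between annotated genes were random.

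The 10 random fragments of widest range and adequate counts differed in how many clones stood apart. cuff_14925, the 5430400D12Rik transcript whose gap to Ap3s2 is printed above, had a 129 share of 4.97% in C2, 17.4% in E1.2, 35.5% in G4 and 52.8% in clone 129. In the XY clones the share was 84.1% in mC3, 79.4% in mE6, 85.4% in mB4 and 68.0% in mG3. All 4 XX clones were thus below all 4 XY clones, and its parental ES libraries had 84.2% and 67.6%. Ap3s2, a subunit of an adaptor complex for vesicle transport, stayed between 48.9% and 52.2% in the same clones.

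In several others 1 or 2 clones used the Cast allele and the rest used both. cuff_15499, an exon of the zinc finger gene Zfp141, had 0.186% of 537 counts from the 129 allele in clone 129, whereas the remaining 7 ranged from 42.3% to 55.0%. cuff_10524, an exon of AW047730 and 5802 bp from Mir9-1, had 0.417% in clone 129 and 2.31% in G4, and 40.7% to 60.5% in the other 6. cuff_1408 had 2.17% in G4 and 30.1% to 61.2% elsewhere, and cuff_6436 had 5.19% in clone 129 and 29.7% to 64.7% elsewhere. By contrast cuff_17108 spread widely, from 19.9% in G4 to 96.5% in E1.2, with 71.2% in mE6, and cuff_5146 went from 10.3% in C2 to 76.4% in mE6.

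**Figure D4:**
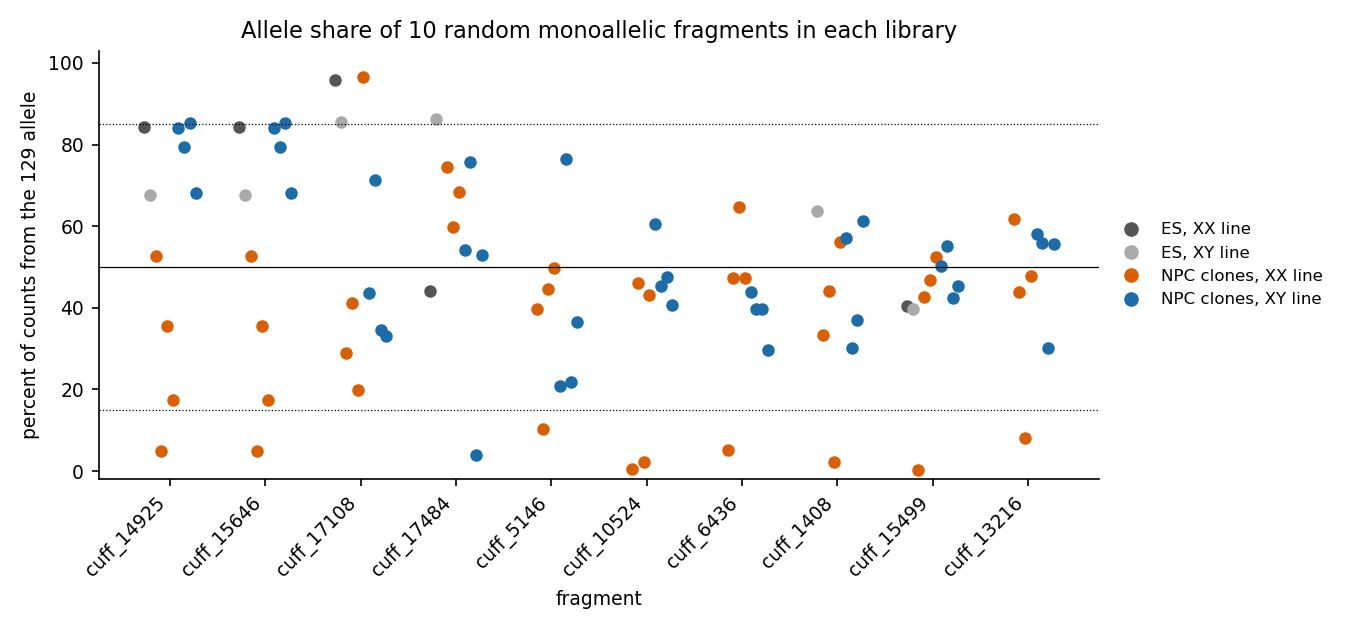
Percent of counts from the 129 allele in each library with at least 20 counts, for the 10 random monoallelic fragments of widest range; the line marks 50% and the dotted lines 15% and 85%. cuff_14925 and cuff_15646 are the same reads. In cuff_15499 a single clone is at 0.186% and the others lie between 42.3% and 55.0%, while cuff_17108 runs from 19.9% to 96.5%.

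The 37 fixed fragments, 17 for the 129 and 20 for the Cast allele, had the same allele in most of the ES libraries where they could be tested. Of the 16 testable in an ES library, 14 showed that allele alone in each ES library tested, 0 were biallelic in all of them and 0 used the other allele. The nearest named row was biallelic in every testable clone for 21 of the 30 fixed fragments where it could be tested, a share near the 72.0% of all named rows compared. cuff_1087, which starts 6949 bp from Rab3gap2 in head-to-head orientation, had 99.4% to 100% of counts from the 129 allele in the clones, and Rab3gap2, a regulator of Rab GTPases, had 47.1% to 53.1%. cuff_16093 had 98.6% to 100% and cuff_15192 96.1% to 98.5%. For the Cast allele, cuff_4428 had 0.316% to 2.62% from the 129 allele and cuff_11058 had 4.56% to 13.8%, with 2.56% and 4.84% in ES cells. Prpf3, a splicing factor gene 2432 bp from cuff_11058, had 43.9% to 49.9%.

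Tested against the spread between clones with limma, 82 of 252 fragments were skewed to 129 and 67 to Cast, where 26.9% and 26.2% of the 11253 rows tested were. A small departure from equal shares passes this test where it is steady over the clones. The fragment cuff_17801, whose start window is printed above, was skewed in every clone, at 91.8% to 98.2% from the 129 allele, while its neighbour 4930502A04Rik, 8453 bp away, had 17.3% to 38.3%. Conversely the most abundant fragment, cuff_10525, had 43.3% to 49.4% in all 8 clones, a small skew to Cast that passed too (log2 -0.27, adjusted p = 0.000908). cuff_2165, which overlaps Cnot6 on the opposite strand, had 3.15% to 22.2%, and Cnot6, a subunit of the main deadenylase complex, had 46.2% to 51.2%.

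The allele share differed between NPC and ES cells for 22 of the 88 fragments with at least 20 counts in all 10 libraries. By limma, 14 had more 129 in NPC and 8 more Cast, where 11.1% and 10.4% of the 10446 rows tested did (21.5% either way). With the XY clones alone, whose library set the ES libraries share, 11 passed. The members named here were chosen after their values were seen. cuff_2714, an exon of Gm11734, had 51.3% and 40.5% from the 129 allele in ES cells and 78.0% to 91.6% in the clones (log2 2.99, SE 0.40, adjusted p = 0.00124). cuff_11453, an exon of the lincRNA Gm12610, had 4.35% and 2.22% in ES cells and 21.0% to 52.2% in the clones (log2 3.44, adjusted p = 0.000675). cuff_2416 had 100% of 20 and of 39 counts from the 129 allele in ES cells and 20.8% to 75% in the clones. Each clone of these 3 fragments lay on the same side of both ES libraries. A smaller change was that of cuff_13687, which overlaps the kinase gene Hipk2 on the opposite strand, from 71.7% and 63.1% to 54.5% to 57.3%.

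A monoallelic call in a fragment was seldom shared by its neighbour. Among the 327 fragments within 10 kb of a named row, 407 calls in 145 fragments were monoallelic in a clone where the neighbour was testable too. The neighbour used that allele alone in 22 of these (5.41%, in 17 fragments), for the opposite allele in 6 (1.47%) and biallelic in 344 (84.5%). With the neighbour taken from the other clones, the same-allele share was 2.81%. For named rows and their nearest named row within 10 kb, 19.5% of monoallelic calls had the same allele in the same clone and 8.81% did with other clones. Of these 555 same-allele named calls, 376 came from overlapping pairs, whose counts do not separate strands. In overlapping pairs the same-allele share was 43.7% of named calls and 10% of 30 fragment calls. Without overlap, up to 1000 bp, it was 7.83% for named rows and 6.57% for fragments. Beyond 1000 bp and up to 10 kb, it was 9.68% and 4.17%. Beyond 10 kb and up to 100000 bp, it was 9.12% for named rows and 10.3% for fragments (30 of 291 calls, in 10 fragments). With the neighbour taken from other clones, the shares in this class were 4.95% and 8.25%. Over 100000 bp, the same-clone share was 5.77% for named rows and 2.40% for fragments. The fragment share thus did not fall steadily with distance. Head-to-head pairs within 1000 bp gave 5 same, 0 opposite and 99 biallelic of 116 calls. With at least 100 counts of both, 6 of 122 fragment calls within 10 kb had the same allele and 4 the opposite one. Starting from the neighbour, at the minimum of 20 counts, 53 calls within 10 kb were monoallelic where the fragment was testable. The fragment used the same allele alone in 22 of these and was biallelic in 18. For named pairs the corresponding numbers were 555 and 1784 of 2627 calls. No test was made of these shares and counts, because pairs share neighbours and regions.

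Shares were also compared without calls. Where fragment and neighbour both had at least 100 counts, the median absolute difference of their 129 shares was 13.0 percentage points in the same clone and 14.1 with the neighbour taken from other clones, against 5.4 and 6.11 for named pairs. The fragment lay outside 30% to 70% in 275 of 799 pairs of a fragment and a clone (34.4%), and the neighbour in 58 (7.26%).

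**Figure D5:**
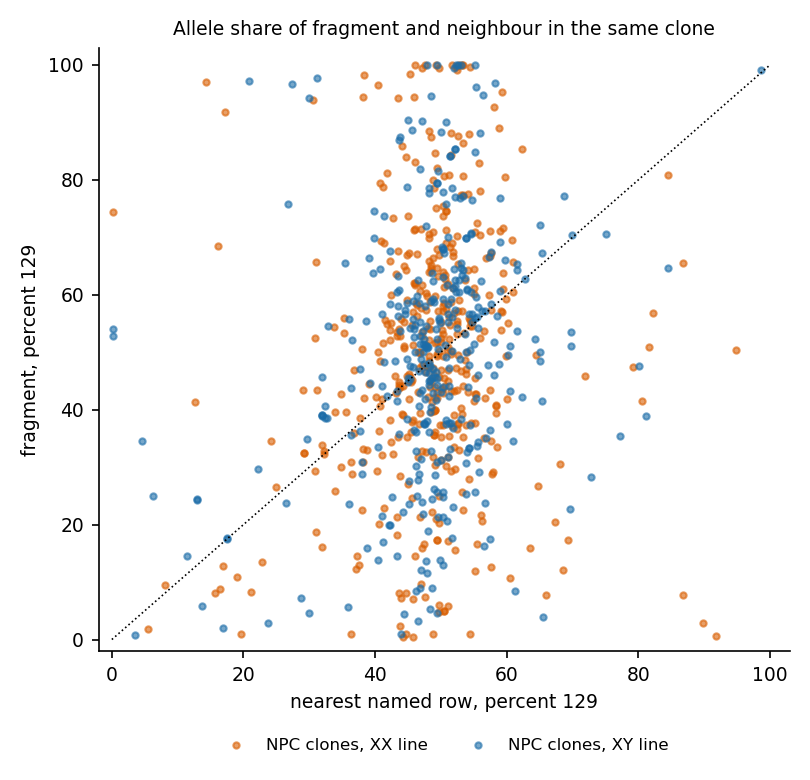
Percent of counts from the 129 allele for a fragment (vertical axis) and its nearest named row within 10 kb (horizontal axis) in the same clone, with at least 100 counts of both; the dotted line marks equal shares. Points are 799 pairs in 146 fragments, orange for XX and blue for XY clones. Most neighbours lie near 50% while the fragments span the whole axis, with 34.4% of fragment points and 7.26% of neighbour points outside 30% to 70%.

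The pairs that did share an allele were few and are given with their values; they were chosen by their call. In mB4, cuff_11293, which begins 73 bp beyond Mmp16, a matrix metalloproteinase gene, had 99.1% of 106 counts from the 129 allele and Mmp16 had 98.7% of 1523. In the same clone cuff_16124, head to head with Odz3, a teneurin gene of neural wiring, had 0.833% of 120 counts and Odz3 3.59% of 10615. cuff_3617, head to head with the neuronal ubiquitin ligase gene Trim9, had 2.38% of 42 counts in mB4, where Trim9 had 12.5%. cuff_8133 overlaps Prdm6, and both used the Cast allele in clones 129 (9.49% and 8.11%) and C2 (1.78% and 5.51%). Among calls on the opposite allele, cuff_17589, 7985 bp from the homeobox gene Barx2, had 0.595% to 7.83% from the 129 allele in the 4 XX clones, where Barx2 had 86.8% to 93.3%. On the other side of Barx2, the head-to-head fragment cuff_17023 shared its allele, with 100% against 91.9% in clone 129 and 100% against 93.3% in E1.2.

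A partial shift was seen where a fragment lies inside a gene. cuff_13216 overlaps the first part of Lphn3, an adhesion receptor gene, and had 8.20% from the 129 allele in G4 and 30.1% to 61.7% in the other clones. Lphn3 had 21.2% in G4 and 45.8% to 49.7% elsewhere, so the same clone was lowest for both. Differing choices were seen for cuff_17484 and Zfp167, 6168 bp away, both testable in 7 clones. In mB4 the fragment had 3.84% from the 129 allele and Zfp167, a zinc finger gene, had 65.5%, while in C2, mC3 and mG3 Zfp167 had 0.195%, 0.142% and 0.207% and the fragment 74.5%, 54.0% and 52.8%. Both had 0 counts in clone 129.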

How the data were processed

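Poly-A selected total RNA was sequenced as paired 100-base reads, per the labels' protocols. The submitters' processing notes name TopHat 1.4.0, Cufflinks 1.3.0, SAMtools and the mm9 genome, without roles. The deposited table gives, for each row and library, allele-informative counts, the fraction of them from 1 allele and FPKM. The counts were deposited as the authors' sum over both alleles, and whether a read over several variants counts once is not given in the sources used here. The authors' fraction multiplied by the count was whole for 100% of autosomal values (within 0.01). The authors' FPKM values are used only to compare levels per length and as an alternative. Deposited starts count from 0 and were raised by 1.

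Counts were tested with edgeR 4.0.16 (TMM, filterByExpr, quasi-likelihood) and log2 allele ratios (pseudocount 0.5) with limma 3.58.1, in R 4.3.3, over all rows and with Benjamini-Hochberg adjustment at 0.05. Alternatives used DESeq2 1.42.0, other filters, minimums, pseudocounts and left-out libraries. Allele calls, distances and windows used Python 3.11.15 and the mm9 genome with GENCODE annotation, and scripts were tested on simulated data. Strand was taken from the row order, which gave the GENCODE strand for 12773 of 12852 named rows (99.4%). The mir-9-1 hairpin is from RefSeq, and 381 of 393 rows named by accession only were given symbols from RefSeq.

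Named fragments are the 8 of largest change each way between NPC and ES and the 5 between XX and XY clones, with a mean of at least 100 counts in the higher group, the 10 random ones of widest range and the 4 of most extreme share for each allele with at least 100 counts, the widest and most discordant pairs with a neighbour, and the longest and most abundant. The members and lists were chosen with earlier results of these data known. The libraries of a group are different clones, and p-values measure the spread between them. Intervals and calls per library cover counting error only. A repeat library each of C2 and mC3 (2 in all) was not analysed here.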

Additional observations from a re-analysis of the deposited data

Results flagged for a closer look

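Values within the 4 clones of each line were examined for a single clone far from the other 3, in 62 groups, and 8 stood apart. Chance marks about 1 group in 20, a rate that was not checked for values near the floor or ceiling of a measure. All 8 lie there, so their number cannot be set against that rate.

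Among the fragments lower in NPC, cuff_4470 was at 0.552 CPM in clone C2, with the other XX clones at 0 to 0.0883. cuff_7188 was at 0.120 CPM in C2, with the others at 0 to 0.0177. Clone G4 was the highest XX clone for 2 such fragments: cuff_1624 was at 0.0914 CPM there and at 0 in the other 3, and cuff_1907 was at 0.142 CPM there and at 0.00883 to 0.0301 in the others. All 4 values lie below both ES libraries.

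Among the fixed fragments, cuff_1087 had 99.5% of counts from the 129 allele in E1.2 and 99.4% in mG3, and 100% in the other clones of each line. cuff_4428 had 2.10% from the 129 allele in E1.2, where the other XX clones had 0.316% to 0.541%, and 2.62% in mB4, where the other XY clones had 0.364% to 0.629%.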

How the results depend on the processing

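No paired analysis was possible because replicate numbers follow the accession order and pair no libraries; line was a term in the NPC and ES fit. Over the alternatives run no direction reversed among the named fragments of the NPC and ES, line and allele skew comparisons. Other fragments were compared by number only. With 1 library left out at a time, fragments higher in NPC numbered 275 to 369 and lower 19 to 26, higher in XX clones 0 to 17 and lower 0 to 3, random 119 to 133, fixed 38 to 43, skewed to 129 75 to 81 and to Cast 62 to 68, changed in share 16 to 30, and same-allele calls with the neighbour 18 to 21. For the random and fixed classes, the required number of testable clones went from 6 to 5 when a clone was left out. Those ranges thus rest on a looser definition than the main numbers. Leaving out an ES library leaves 1 ES library in the NPC and ES fits. With an ES mean of at least 20 counts, 55 fragments were higher in NPC. Between lines, DESeq2 called 64 higher and 10 lower, and limma on log2(FPKM + 1) called 7 lower; the cause was not tested. Of 60 values of the 5 named fragments that differed between lines, 38 missed the threshold in an alternative, and of 256 for the NPC and ES comparison 2 did.

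Stricter minimums lowered both numbers and shares of testable fragments. At 50, 100 and 500 counts, random fragments numbered 63 (26.9%), 40 (24.5%) and 8 (15.4%) and fixed ones 21 (8.97%), 10 (6.13%) and 2 (3.85%), against 36.8% and 10.5% at 20 counts. At a major allele of at least 95% there were 55 random and 19 fixed fragments. Without annotated exons 85 of 235 were random and 29 fixed. At 100 counts 41 fragments were skewed to 129, 26 were skewed to Cast and 6 changed their share between ES and NPC; with the XY clones alone 11 did. Same-allele calls with the neighbour numbered 12 (7.19%) up to 1 kb, 43 (6.84%) up to 50 kb, 6 (4.92%) at 100 counts and 5 (2.21%) at 95%. In 2 windows of 10 Mb the named rows of a clone were themselves skewed, and without the fragments there 129 were random and 36 fixed. Depth limits the fragments: 91 were testable in no library.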

Other observations

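The 19 fragments on the X chromosome, which belong to none of the comparisons above, were tabulated by library where they had at least 20 counts. In the XX ES library 6 were testable, with a median of 53.1% from the 129 allele and 3 between 30% and 70%. In the XY ES library the 5 testable fragments were all at 100%. In XX clones 129, C2 and G4, 8 of 9, 8 of 11 and 9 of 12 had at least 85% from the Cast allele. In XX clone E1.2, 10 of 15 had at least 85% from the 129 allele. In the XY clones the 14, 9, 11 and 12 testable fragments (mC3, mE6, mB4 and mG3) all had at least 96.8% from the 129 allele.

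The fragments with the longest spans had few counts for their length. cuff_9175, of 777165 bp and upstream of the synapse gene Lrrc4c, had 0 counts in clones 129, C2 and G4 and in both ES libraries, 17 in E1.2 and 26 to 266 in the XY clones. Its counts in the XY clones were from the Cast allele, at 0.376% to 3.85% from the 129 allele, while Lrrc4c had 34.9% to 48.8% there. cuff_6484, upstream of the axon guidance receptor gene Robo1, had at most 33 counts in a clone.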
